A study of Mus musculus with 8 samples.

Results

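Chi3l4, Chi3l3, Chi3l1, Fcgbp, Gm10935, Clca2 and Spink5 are 7 of the 25913 genes counted in mouse olfactory epithelium. They were chosen by name from the table of read counts, 6 of them as secreted and mucosal genes with large rises in the libraries titled OMP_IGF1R, and Chi3l1 as a paralog of the first pair. The choice has no numeric limit, and other secreted genes had larger log2 fold changes than the lowest of the 6, Clca2 (1.40), among them Itln1 (1.99) and Alb (8.68), which was named after its values were seen. Because the choice used the difference between the groups, that difference is described for these genes and not tested. All 7 passed the filter on low counts and were among the 17381 genes fitted. Chi3l4, Chi3l3 and Chi3l1 are now named Chil4, Chil3 and Chil1. The gene called Clca2 in the count table carries the identifier of the gene now named Clca3a2.

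Olfactory epithelium was taken by dissection from mice of strain C57BL/6J at 40 weeks of age, and the study compared a knockout of Igf1r, the insulin-like growth factor 1 receptor, in olfactory sensory neurons with its control. There were 4 libraries titled OMP_IGF1R (replicates 11, 12, 17 and 18) and 4 titled IGF1R_flfl (replicates 1, 2, 13 and 3). The field for genotype swaps them: it calls the libraries titled OMP_IGF1R OMPflfl (Ctrl) and those titled IGF1R_flfl OMPIGF1 (KO). Groups are named here by title, each fold change is OMP_IGF1R over IGF1R_flfl, and which genotype is the higher one rests on which of the labels holds. Omp marks mature olfactory sensory neurons. The titles also carry numbers, 35138 to 35141 in IGF1R_flfl and 35156 to 35159 in OMP_IGF1R. Anything that goes with these numbers cannot be told apart from the groups. The labels name no batch and no Cre line. They also do not state that each library is from its own animal, and the p-values below therefore cover only the spread among these libraries, part of which may be technical.

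Mammalian chitinases and chitinase-like proteins share the fold of glycoside hydrolase family 18, and the chitinase-like members bind sugar chains without cutting chitin. Chi3l3 (Ym1) and Chi3l4 (Ym2) are rodent chitinase-like proteins secreted by macrophages and airway epithelium, and they are known to be induced by the type 2 cytokines interleukin-4 and interleukin-13. Fcgbp is a large protein of mucus, Clca proteins are secreted regulators of calcium-activated chloride channels, and Spink5 encodes LEKTI, an inhibitor of serine proteases best known from skin.

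The stretch around the catalytic site shows what separates the chitinase-like genes from the chitinases. In the coding sequences of GENCODE M21 (GRCm38) it lies at chr3:106210524-106210568 (minus strand) for Chi3l4, chr3:106160419-106160463 (minus strand) for Chi3l3, chr1:134185219-134185263 (plus strand) for Chi3l1, chr3:106122436-106122480 (plus strand) for the chitinase Chia and chr1:134145322-134145366 (plus strand) for the chitinase Chit1, within a single exon in each gene. Capitals mark the codon at the place of the catalytic glutamate.
Chi3l4: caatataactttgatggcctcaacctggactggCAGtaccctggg
Chi3l3: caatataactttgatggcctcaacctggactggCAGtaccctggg
Chi3l1: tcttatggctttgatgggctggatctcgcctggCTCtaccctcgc
Chia: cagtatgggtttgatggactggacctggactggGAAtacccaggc
Chit1: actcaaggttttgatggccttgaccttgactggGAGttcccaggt
The codon encodes glutamate in Chia (GAA) and Chit1 (GAG) but not in Chi3l4, Chi3l3 or Chi3l1. Chi3l4 and Chi3l3 were identical over these 45 bases, and over their whole coding sequences 1139 of 1194 aligned bases (95.4%) were identical. Chi3l1 shared 58.3% of aligned coding bases with Chi3l4 and 58.4% with Chi3l3.

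The likeness of Chi3l4 and Chi3l3 bears on their counts, since a read from an identical stretch cannot by itself be assigned to either gene. The reads were paired, and a mate outside the stretch may still tell the genes apart. The share of single windows given next is therefore not the share of ambiguous pairs. The longest identical run was 136 bases, and 54 of the 1440 windows of 100 bases (the read length) in each transcript, 3.75%, were also found in the other. Their sequences differ more in other places, as in this stretch of 60 bases with 10 differences, shown in capitals, at chr3:106206041-106206100 in Chi3l4 and chr3:106155714-106155773 in Chi3l3 (both minus strand).
Chi3l4: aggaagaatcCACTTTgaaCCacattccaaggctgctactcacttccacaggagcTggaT
Chi3l3: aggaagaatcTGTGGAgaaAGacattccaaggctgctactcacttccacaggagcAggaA

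Total counts were 18802471 to 27793375 per library. Igf1r averaged 42.1 ± 6.32 CPM (counts scaled to library size) in OMP_IGF1R and 66.5 ± 7.65 CPM in IGF1R_flfl (SD, n = 4 each). The log2 fold change was -0.66 with an adjusted p of 0.0117 by edgeR's quasi-likelihood test, so the targeted gene was lower in the libraries that the genotype field calls controls. Omp averaged 1969 ± 224 CPM in OMP_IGF1R and 5386 ± 989 CPM in IGF1R_flfl (SD, n = 4 each), and all 12 mature neuron markers tested were lower in OMP_IGF1R by the same test. By that test 5.37% of all genes tested were called lower. In dissected tissue, fewer cells of a type and less RNA per cell cannot be told apart. The summed markers of sustentacular cells, the supporting cells of this epithelium, lay between 17003 and 17880 CPM in OMP_IGF1R and between 15111 and 20034 CPM in IGF1R_flfl. Of the libraries, 3 stood apart. OMP_IGF1R 17 held squamous epithelium and skeletal muscle genes (653 and 558 CPM summed, against at most 31.3 and 9.74 CPM in every other library), IGF1R_flfl 2 held olfactory bulb and myelin genes (1671 CPM summed, against at most 162 CPM elsewhere), and IGF1R_flfl 13 held goblet cell genes that are described below.

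Of the 7 genes, 6 were higher in every OMP_IGF1R library than in any IGF1R_flfl library, and only Chi3l1 overlapped. By the same measure 6.57% of all genes tested were higher in every OMP_IGF1R library, and 16.9% did not overlap in one direction or the other. The members were chosen for this difference, so nothing is read from the comparison of these shares. The ratio of the lowest OMP_IGF1R library to the highest IGF1R_flfl library was 3.87 for Chi3l4, 3.33 for Gm10935, 2.46 for Fcgbp, 1.69 for Spink5, 1.68 for Clca2 and 1.32 for Chi3l3.

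**Figure D1:**
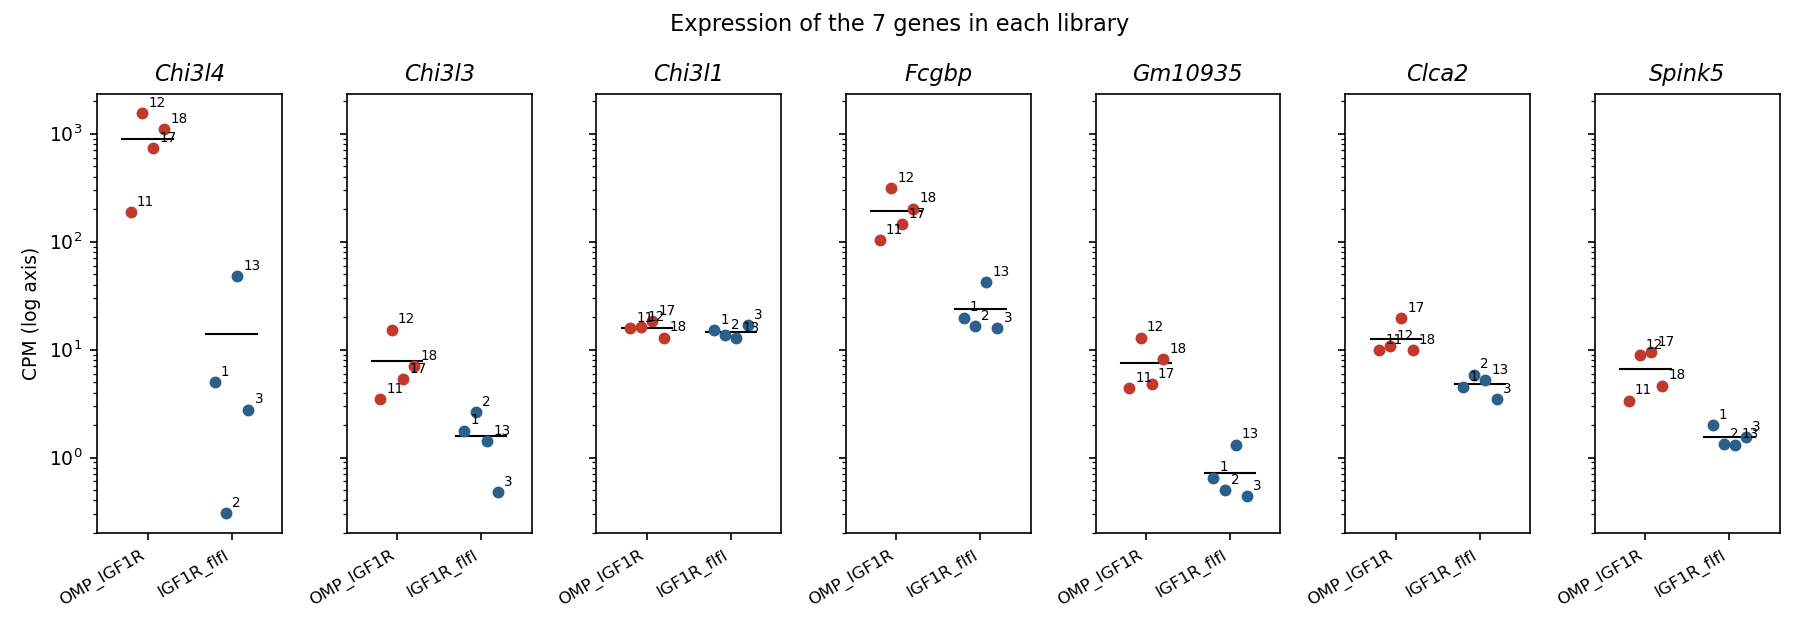
CPM of each gene (log axis, the same in every panel) in the 4 OMP_IGF1R libraries and the 4 IGF1R_flfl libraries, with points numbered by replicate and a bar at the arithmetic mean of each group. Chi3l4 spans 0.305 to 1540 CPM over the 8 libraries, while Chi3l1 lies between 12.7 and 18.3 CPM in all of them.

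Chi3l4 (ENSMUSG00000063779, GRCm38 chr3:106201490-106219507) was the most abundant of the 3 chitinase-like members in OMP_IGF1R, at 187, 1540, 734 and 1100 CPM in replicates 11, 12, 17 and 18. In IGF1R_flfl it had 5.0, 0.305, 48.2 and 2.78 CPM in replicates 1, 2, 13 and 3. The groups did not overlap, and each group was itself uneven, with an 8.25-fold range in OMP_IGF1R and a 158-fold range in IGF1R_flfl. The means were 890 ± 573 CPM in OMP_IGF1R and 14.1 ± 22.9 CPM in IGF1R_flfl (SD, n = 4 each), and the fitted log2 fold change was 6.00 (SE 1.32), the 3rd highest of the 17381 genes. The value rests in part on IGF1R_flfl 13: without that library the log2 fold change was 8.37. In raw reads, Chi3l4 had 3659, 40867, 16589 and 28635 counts in OMP_IGF1R 11, 12, 17 and 18, and 138, 8, 1062 and 70 counts in IGF1R_flfl 1, 2, 13 and 3. It ranked 31st of all genes by count in OMP_IGF1R 12 and 17899th in IGF1R_flfl 2.

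Chi3l3 (ENSMUSG00000040809, chr3:106147554-106167564), the neighbouring paralog, was a low-level gene in the same tissue. It had 3.47, 15.3, 5.31 and 7.07 CPM in OMP_IGF1R 11, 12, 17 and 18, and 1.77, 2.63, 1.41 and 0.476 CPM in IGF1R_flfl 1, 2, 13 and 3. The groups were separate but close: OMP_IGF1R 11 was only 1.32 times IGF1R_flfl 2. The log2 fold change was 2.31 (SE 0.54). Per 100 Chi3l4 reads there were between 0.643 and 1.86 Chi3l3 reads in the OMP_IGF1R libraries and between 2.92 and 862.5 in the IGF1R_flfl libraries. Those OMP_IGF1R ratios are below the 3.75% of read-length windows that both transcripts share, and how the counting treated such reads is not given in the sources used here, so what part of the Chi3l3 counts in OMP_IGF1R came from Chi3l4 transcripts was not tested. In IGF1R_flfl 2, where Chi3l4 had 8 reads, Chi3l3 had 69. With the counts of both genes summed, the log2 fold change was 5.85.

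Chi3l1 (ENSMUSG00000064246, chr1:134182176-134190181), whose human counterpart is YKL-40, lies on another chromosome. It had 15.9, 16.2, 18.3 and 12.9 CPM in OMP_IGF1R 11, 12, 17 and 18, and 15.2, 13.7, 12.7 and 17 CPM in IGF1R_flfl 1, 2, 13 and 3. The groups overlapped, OMP_IGF1R 18 being below 3 of the 4 IGF1R_flfl libraries. Its log2 fold change was 0.11 (SE 0.13). Per kilobase of exon, the mean levels in OMP_IGF1R and IGF1R_flfl were 316 and 5.0 CPM per kb for Chi3l4, 5.65 and 5.22 CPM per kb for Chi3l1, and 4.77 and 0.963 CPM per kb for Chi3l3. In IGF1R_flfl the per-kilobase means of Chi3l4 and Chi3l1 thus lay side by side, but the spread of Chi3l4 there exceeded its mean. The Chi3l4 mean was raised by IGF1R_flfl 13, and the IGF1R_flfl medians were 3.89 CPM for Chi3l4 and 14.5 CPM for Chi3l1. The exon lengths join all annotated exons of a gene, so they can exceed the length of a single transcript.

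Fcgbp (ENSMUSG00000047730, chr7:28071236-28120862) encodes a protein that binds the Fc part of IgG and is a structural component of mucus. It had 104, 315, 144 and 202 CPM in OMP_IGF1R 11, 12, 17 and 18, and 19.8, 16.5, 42.1 and 15.8 CPM in IGF1R_flfl 1, 2, 13 and 3. Every OMP_IGF1R library was above every IGF1R_flfl library, and replicate 12 was the highest in OMP_IGF1R while replicate 13 was the highest in IGF1R_flfl, as for Chi3l4. The means were 191 ± 91.9 CPM in OMP_IGF1R and 23.5 ± 12.5 CPM in IGF1R_flfl (SD, n = 4 each), with a log2 fold change of 3.03 (SE 0.42). Per kilobase of exon, Fcgbp averaged 18.2 CPM per kb in OMP_IGF1R and 2.24 CPM per kb in IGF1R_flfl.

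Gm10935 (ENSMUSG00000078384, chr7:28099660-28102487) lies inside the span of Fcgbp and has no entry in GENCODE M21. It had 4.39, 12.9, 4.82 and 8.14 CPM in OMP_IGF1R 11, 12, 17 and 18, and 0.652, 0.495, 1.32 and 0.436 CPM in IGF1R_flfl 1, 2, 13 and 3. The libraries fell in the same order as for Fcgbp in both groups, and the log2 fold change was 3.40 (SE 0.45). Of its 2828 bases, 727 (25.7%) fall in annotated Fcgbp exons. There were 3.34 to 4.23 Gm10935 reads per 100 Fcgbp reads in the OMP_IGF1R libraries and 2.76 to 3.29 in the IGF1R_flfl libraries. Since overlapping genes can share reads and the strand setting of the counting is not given in the sources used here, Gm10935 is not counted as a gene independent of Fcgbp. Fcgbp with the Gm10935 counts added had a log2 fold change of 3.04.

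Clca2 (ENSMUSG00000028262, chr3:144796559-144819494) belongs to a cluster of calcium-activated chloride channel regulator genes. It had 9.95, 10.9, 19.6 and 9.83 CPM in OMP_IGF1R 11, 12, 17 and 18, and 4.49, 5.87, 5.22 and 3.45 CPM in IGF1R_flfl 1, 2, 13 and 3. The groups did not overlap, 3 of the OMP_IGF1R libraries lay close together, and OMP_IGF1R 17, the library with squamous and muscle genes, was above them. The log2 fold change was 1.40 (SE 0.26), and 1.11 without OMP_IGF1R 17.

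Spink5 (ENSMUSG00000055561, chr18:43963235-44022501) encodes a multidomain inhibitor that restrains kallikreins, the proteases that shed the outer layers of skin. It had 3.37, 8.82, 9.47 and 4.65 CPM in OMP_IGF1R 11, 12, 17 and 18, and 1.99, 1.33, 1.32 and 1.55 CPM in IGF1R_flfl 1, 2, 13 and 3. The groups did not overlap, and the IGF1R_flfl libraries were the more even. The log2 fold change was 2.08 (SE 0.34), and 1.87 without OMP_IGF1R 17. Per kilobase of exon, Clca2 averaged 3.16 CPM per kb in OMP_IGF1R and 1.2 CPM per kb in IGF1R_flfl, and Spink5 averaged 1.37 CPM per kb in OMP_IGF1R and 0.323 CPM per kb in IGF1R_flfl.

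Within the OMP_IGF1R group the genes did not share 1 order of libraries. Chi3l4, Chi3l3, Fcgbp and Gm10935 ran from replicate 12 through 18 and 17 to 11, whereas Clca2, Spink5 and Chi3l1 were highest in replicate 17. In IGF1R_flfl, replicate 13 was the highest for Chi3l4, Fcgbp and Gm10935 but not for Chi3l3, Clca2, Spink5 or Chi3l1. After each group's mean was removed from log2 CPM, Pearson's r over the 8 libraries was 0.98 between Fcgbp and Gm10935, 0.83 between Chi3l4 and Fcgbp, 0.55 between Chi3l3 and Fcgbp, 0.45 between Clca2 and Spink5, and 0.08 between Chi3l4 and Chi3l3. These values describe libraries that share their tissue pieces and depth, and they carry no test.

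The genes whose library-to-library pattern was most like each member, among 14870 genes with a mean log2 CPM of at least 1, were listed by the same r over 8 libraries. For Chi3l4 they were Gm15868 (0.97), B4galt4 (0.97) and Hist2h2aa1 (0.96). Chi3l3 was followed by Nab1 (0.98), 1600002K03Rik (0.98) and Cubn (0.97), and Chi3l1 by Slc25a14 (0.96), Bcar3 (0.95) and Scgn (0.94). Fcgbp was followed by Gm10935 (0.98), Galnt5 (0.98) and Fer1l6 (0.97), and Gm10935 by Gm15628 (0.99), Fcgbp (0.98) and Pdpn (0.97). Clca2 was followed by I830012O16Rik (0.99), Immp1l (0.99) and Trmt2b (0.98), and Spink5 by Mfap1b (0.98), Upf3a (0.96) and Skiv2l2 (0.96). With so many genes and 8 libraries, values this high are read as a description alone.

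The other genes of the same families were read against all genes. Across all genes tested, 8.20% were called at an adjusted p under 0.05, 2.83% as higher and 5.37% as lower in OMP_IGF1R, with a median log2 fold change of -0.01. The balance of directions depends on the scaling: with raw library totals in place of TMM, 775 genes were higher and 542 lower, against 492 higher and 933 lower. Of 6 other tested genes of the chitinase family, 1 was higher and 0 were lower, with 2 at an unadjusted p under 0.05 and a median log2 fold change of 0.00059. DESeq2 called 2 higher and 0 lower, and voom 1 higher and 0 lower. The one called by edgeR was Chia, the acidic mammalian chitinase, at 22.9, 22.5, 21.3 and 28.4 CPM in OMP_IGF1R 11, 12, 17 and 18, and 17.4, 17.3, 19.0 and 16.4 CPM in IGF1R_flfl 1, 2, 13 and 3 (log2 fold change 0.44, SE 0.10, edgeR adjusted p = 0.0252). It did not overlap between the groups, and it passed the threshold in 3 of the 8 fits that leave out 1 library, being lost without OMP_IGF1R 11, 12 or 18 or IGF1R_flfl 1 or 3.

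The most abundant of these genes, BC051070 (now Chil6), averaged 1197 ± 82.8 CPM in OMP_IGF1R and 899 ± 230 CPM in IGF1R_flfl (SD, n = 4 each), and it did not pass the test (edgeR adjusted p = 0.149). It was named after its values were seen, as were the next 3 genes. Chi3l7, within the same cluster on chromosome 3, averaged 2.26 ± 0.78 CPM in OMP_IGF1R and 2.25 ± 0.353 CPM in IGF1R_flfl (SD, n = 4 each). Ovgp1, the oviduct glycoprotein, had a log2 fold change of -0.17. Chit1, the other true chitinase, had 0, 0, 52 and 0 counts in OMP_IGF1R 11, 12, 17 and 18, and 0, 1, 9 and 0 counts in IGF1R_flfl 1, 2, 13 and 3, so nearly all of its reads came from OMP_IGF1R 17 and IGF1R_flfl 13.

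Of 6 other Clca genes, 2 passed the filter and 0 were called by edgeR, DESeq2 or voom, with 0 at an unadjusted p under 0.05. The gene that the file calls Clca3, the classic goblet cell member now named Clca1, was chosen after its values were seen. It had 0, 0, 0 and 2 counts in OMP_IGF1R 11, 12, 17 and 18, and 0, 0, 87 and 1 counts in IGF1R_flfl 1, 2, 13 and 3. It was thus almost confined to IGF1R_flfl 13. None of the 11 other Spink genes passed the filter, and 6 of them had 0 counts in every library. Spink5 was therefore the one Spink gene with enough reads to be fitted.

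Mucus and type 2 response genes were counted next, because Fcgbp, Clca genes and the Ym pair belong to mucus or to type 2 responses. Of 36 tested genes of these lists other than the members, 6 were higher and 0 were lower, 13 had an unadjusted p under 0.05, and the median log2 fold change was 0.21. DESeq2 called 8 higher and 0 lower, and voom 6 higher and 0 lower. By edgeR, 2.83% of all genes tested were called higher and 5.37% lower. Of all 17381 genes tested, 4083 had an unadjusted p under 0.05. The list was written with earlier results of these libraries known and is not independent evidence of a direction. The count fell to 1 without OMP_IGF1R 18, and to 3 without OMP_IGF1R 11 or without OMP_IGF1R 12.

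**Figure D2:**
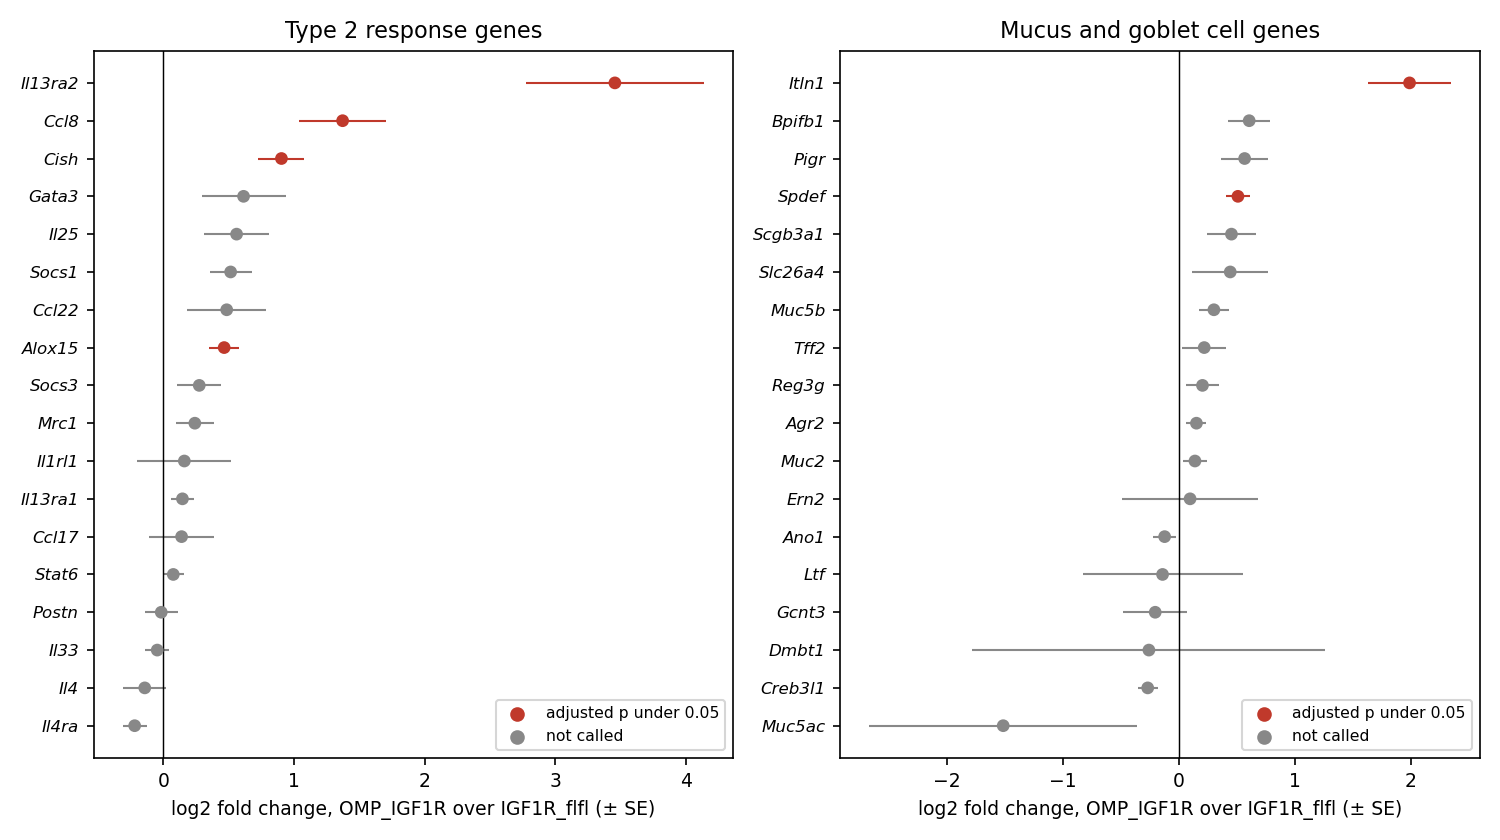
Log2 fold change, OMP_IGF1R over IGF1R_flfl, with its SE for the tested type 2 response genes (left) and mucus and goblet cell genes (right) other than the 7 members, red where the edgeR adjusted p is under 0.05. Il13ra2, Ccl8, Cish, Alox15, Itln1 and Spdef are red, and Muc5ac has the lowest value, at -1.51. Muc5ac was at 38.7 CPM in IGF1R_flfl 13, at 0.724 to 1.47 CPM in the other IGF1R_flfl libraries and at 2.68 to 6.07 CPM in OMP_IGF1R.

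Among the type 2 response genes 4 of 18 were called, each higher in OMP_IGF1R, beside 2.83% called higher over all genes tested. Il13ra2, the decoy receptor for interleukin-13, had 8, 19, 19 and 21 counts in OMP_IGF1R 11, 12, 17 and 18, and 5, 0, 1 and 0 counts in IGF1R_flfl 1, 2, 13 and 3 (log2 fold change 3.46, SE 0.68, edgeR adjusted p = 0.0175). The counts are few, and the call was lost without OMP_IGF1R 12 or 18. Cish, a cytokine-inducible suppressor of signalling, averaged 5.08 ± 1.17 CPM in OMP_IGF1R and 2.72 ± 0.103 CPM in IGF1R_flfl (SD, n = 4 each; edgeR adjusted p = 0.0165). The Cish call was kept in 7 of 8 fits that leave out a library, being lost without OMP_IGF1R 18. Over all settings tried it was kept in 15 of 17.

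Ccl8, a chemokine, averaged 2.02 ± 0.611 CPM in OMP_IGF1R and 0.778 ± 0.338 CPM in IGF1R_flfl (SD, n = 4 each; edgeR adjusted p = 0.0366), with the call kept in 1 of 8 fits that leave out a library. Alox15, a lipoxygenase, averaged 107 ± 11.7 CPM in OMP_IGF1R and 77.5 ± 11.9 CPM in IGF1R_flfl (SD, n = 4 each; edgeR adjusted p = 0.0397), with the call kept in 2 of 8. Of the cytokine, receptor and signalling genes of the pathway, 4 named after their values were seen did not pass the test: Il4ra had a log2 fold change of -0.22, Stat6 of 0.08, Il33 of -0.05 and Il4 of -0.14.

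Some type 2 genes lay under the filter on low counts and are given as counts, having been chosen after their values were seen. Retnla, a resistin-like protein made with the Ym proteins by alternatively activated macrophages, had 1, 8, 27 and 8 counts in OMP_IGF1R 11, 12, 17 and 18, and 0 counts in each IGF1R_flfl library. Il13 had 0, 5, 1 and 7 counts in OMP_IGF1R 11, 12, 17 and 18, and 0 counts in each IGF1R_flfl library. Arg1, arginase 1, had 8, 7, 26 and 20 counts in OMP_IGF1R 11, 12, 17 and 18, and 6, 4, 4 and 2 counts in IGF1R_flfl 1, 2, 13 and 3. The groups of Retnla and Arg1 did not overlap, while OMP_IGF1R 11 was at 0 for Il13, and at this depth such counts set no fold change. The share of genes under the filter whose groups do not overlap was not computed, so nothing is read from the lack of overlap.

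Among the mucus and goblet cell genes 2 of 18 were called, each higher in OMP_IGF1R, beside 2.83% called higher over all genes tested. Itln1, an intelectin that binds microbial sugars, had 33, 70, 71 and 102 counts in OMP_IGF1R 11, 12, 17 and 18, and 10, 16, 24 and 21 counts in IGF1R_flfl 1, 2, 13 and 3. Its log2 fold change was 1.99 (SE 0.35, edgeR adjusted p = 0.0122), and the call was kept in all 8 fits that leave out a library. Spdef, a transcription factor of goblet cells, averaged 17.4 ± 0.751 CPM in OMP_IGF1R and 12.2 ± 1.66 CPM in IGF1R_flfl (SD, n = 4 each; edgeR adjusted p = 0.0195), with the call kept in 4 of 8. The secreted mucin Muc5b, named after its values were seen, averaged 1064 ± 99.6 CPM in OMP_IGF1R and 863 ± 150 CPM in IGF1R_flfl (SD, n = 4 each) and did not pass (edgeR adjusted p = 0.190).

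IGF1R_flfl 13 stood apart for goblet cell genes, a finding made after the values were seen. Muc5ac had 119, 71, 62 and 83 counts in OMP_IGF1R 11, 12, 17 and 18, and 20, 27, 853 and 37 counts in IGF1R_flfl 1, 2, 13 and 3. Tff1, a trefoil peptide, had 4, 0, 1 and 0 counts in OMP_IGF1R 11, 12, 17 and 18, and 0, 0, 19 and 2 counts in IGF1R_flfl 1, 2, 13 and 3. This library was also the one with the highest Chi3l4 and Fcgbp of its group. Without it and OMP_IGF1R 17, a choice made after seeing the data, the log2 fold changes were 8.45 for Chi3l4, 3.58 for Fcgbp, 4.0 for Gm10935, 2.41 for Chi3l3, 1.80 for Spink5, 1.16 for Clca2 and -0.02 for Chi3l1, and 4 mucosal genes were called.

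**Figure D3:**
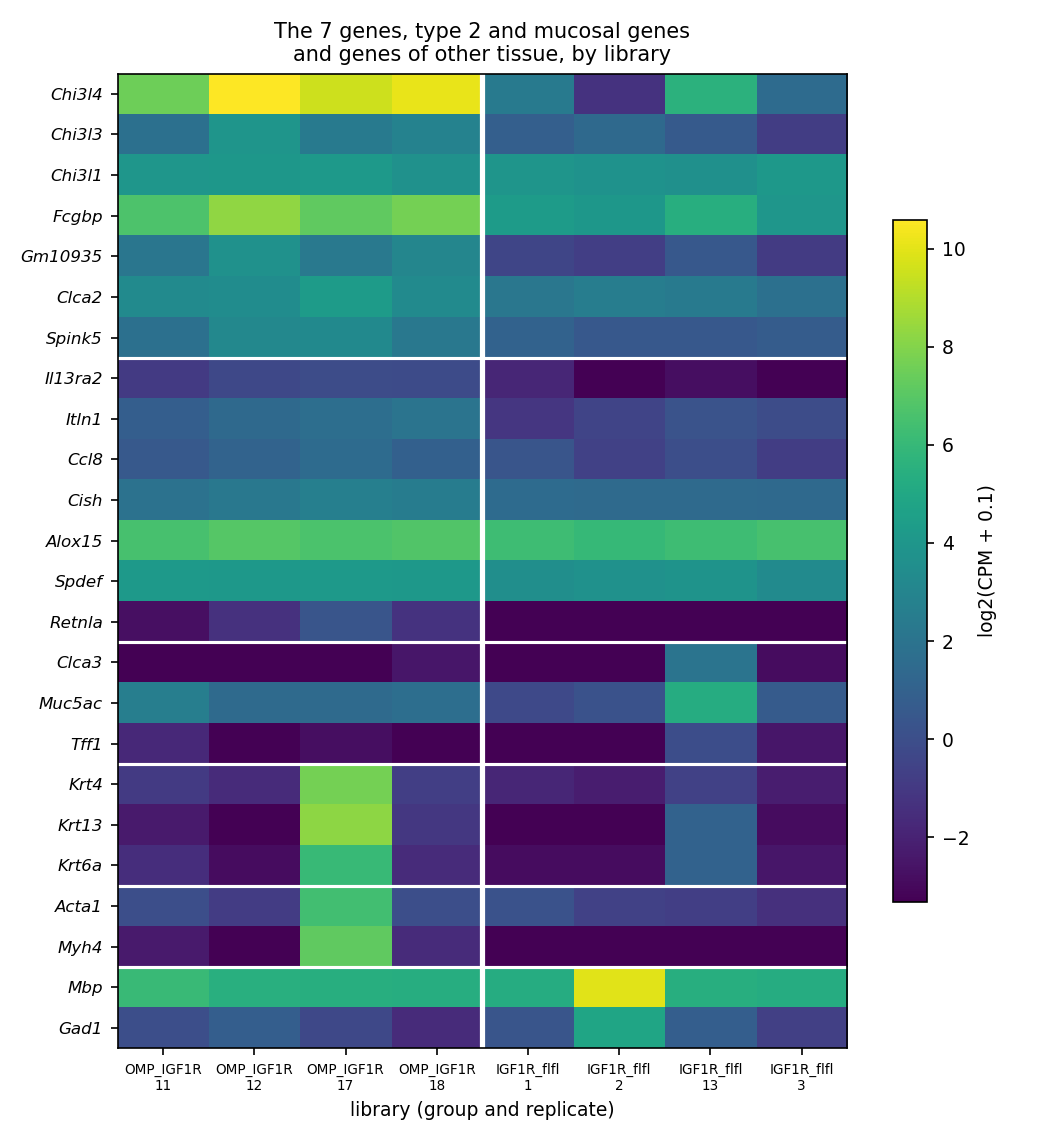
Log2(CPM + 0.1) of the 7 genes, of type 2 and mucosal genes, of goblet cell genes and of squamous, muscle and olfactory bulb genes in each library, OMP_IGF1R left and IGF1R_flfl right of the white line. Krt4, Krt13, Acta1 and Myh4 stand out in OMP_IGF1R 17, Muc5ac and Clca3 in IGF1R_flfl 13, and Mbp and Gad1 in IGF1R_flfl 2.

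Spink5 was set beside kallikreins and other genes linked to its protein in skin. Of 21 such genes 5 passed the filter and 0 were called by edgeR, 1 had an unadjusted p under 0.05, and DESeq2 called 0 and voom 1. Klk14, named after its values were seen, ranged from 0.153 to 23.6 CPM in OMP_IGF1R and from 0.0724 to 63.6 CPM in IGF1R_flfl. Of 9 tested squamous epithelium genes edgeR called 0, with 3 at an unadjusted p under 0.05, while DESeq2 called 2 and voom 0. The squamous sum was 25.2, 29.1, 653 and 23.4 CPM in OMP_IGF1R 11, 12, 17 and 18, and 22.4, 19.8, 31.3 and 27.4 CPM in IGF1R_flfl 1, 2, 13 and 3. Spink5 was at 9.47 CPM in OMP_IGF1R 17 and 8.82 CPM in OMP_IGF1R 12. The part of squamous tissue in the Spink5 level was not tested.

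Chitinase-like proteins are known from macrophages, neutrophils and tissue with eosinophils, so markers of these cells were counted. As before, edgeR called 2.83% of all genes tested higher and 5.37% lower, and 4083 of 17381 had an unadjusted p under 0.05. Of 16 tested macrophage markers, 0 were called by edgeR, DESeq2 or voom, and 3 had an unadjusted p under 0.05. Their log2 fold changes were all above 0, from 0.03 to 0.42, with a median of 0.25, beside -0.01 over all genes. The summed macrophage markers lay between 491 and 592 CPM in OMP_IGF1R and between 356 and 549 CPM in IGF1R_flfl. The 12 tested neutrophil markers gave 1 higher, Lcn2, at 27.6 ± 13 CPM in OMP_IGF1R and 12 ± 2.45 CPM in IGF1R_flfl (SD, n = 4 each; edgeR adjusted p = 0.0398), and 1 lower, Mpo, at 0.270 ± 0.108 CPM in OMP_IGF1R and 1.16 ± 0.738 CPM in IGF1R_flfl (SD, n = 4 each; edgeR adjusted p = 0.0344). The summed neutrophil markers lay between 283 and 618 CPM in OMP_IGF1R and between 142 and 939 CPM in IGF1R_flfl, highest in OMP_IGF1R 17 and in IGF1R_flfl 13. Ltf alone had 505 CPM in OMP_IGF1R 17 and 862 CPM in IGF1R_flfl 13, the larger part of the sum there. Whether the Ltf reads came from neutrophils was not tested. Lcn2 kept its call in 2 and Mpo in 3 of 8 fits that leave out a library.

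Eosinophil markers were near 0. The 9 markers found summed to between 2.19 and 3.09 CPM in OMP_IGF1R and between 0.952 and 3.22 CPM in IGF1R_flfl, 3 passed the filter, and 0 were called by edgeR, DESeq2 or voom, with 0 at an unadjusted p under 0.05. Epx, eosinophil peroxidase, had 1, 2, 0 and 2 counts in OMP_IGF1R 11, 12, 17 and 18, and 0, 6, 0 and 1 counts in IGF1R_flfl 1, 2, 13 and 3. Of 11 tested markers of respiratory epithelium, edgeR called 0 higher and 2 lower, the cilia genes Tekt1 and Ccdc39, with 5 at an unadjusted p under 0.05, while DESeq2 and voom each called 0 higher and 3 lower. The edgeR shares over all genes tested were 2.83% higher and 5.37% lower. The list summed to between 6404 and 6752 CPM in OMP_IGF1R and between 6685 and 7808 CPM in IGF1R_flfl. Nasal gland genes summed to between 2884 and 17599 CPM in OMP_IGF1R and between 3513 and 18994 CPM in IGF1R_flfl, highest in OMP_IGF1R 17 and in IGF1R_flfl 13. The part of any of these cell types in the levels of the 7 genes was not tested.

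The genes beside the members on the chromosome were counted in the same way. Of 75 tested genes within 500 kb of a member, 3 were called higher and 3 lower in OMP_IGF1R, and the median log2 fold change was -0.05. Over all genes tested, 8.20% were called, 2.83% as higher and 5.37% as lower. With raw library totals 5 of the 75 neighbours were higher and 3 lower. The called neighbours are named as a description alone. Kcnd3, a potassium channel gene 473552 bases from Chi3l3, averaged 2.85 ± 0.2 CPM in OMP_IGF1R and 7.31 ± 2.57 CPM in IGF1R_flfl (SD, n = 4 each; edgeR adjusted p = 0.00969) and kept its call in all 8 fits that leave out a library. Chia, whose values are given above, lies 15434 bases from Chi3l3. The gene 9530053A07Rik, 8604 bases from Fcgbp and chosen after its values were seen, had 42, 51, 54 and 63 counts in OMP_IGF1R 11, 12, 17 and 18, and 88, 49, 46 and 58 counts in IGF1R_flfl 1, 2, 13 and 3, which overlapped.

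The other called neighbours were Btg2 near Chi3l1 (log2 fold change 0.47, edgeR adjusted p = 0.0273), Ttc9b near Fcgbp (-0.63, edgeR adjusted p = 0.0337), Odf2l near Clca2 (-0.31, edgeR adjusted p = 0.0250) and Myot near Spink5 (1.99, edgeR adjusted p = 0.0482). Myot, a muscle gene, was highest at 7.61 CPM in OMP_IGF1R 17, the library with muscle genes, against 1.43 to 2.30 CPM in the other OMP_IGF1R libraries and 0.686 to 1.12 CPM in IGF1R_flfl. These 4 kept their calls in 1 to 4 of 8 fits that leave out a library.

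**Figure D4:**
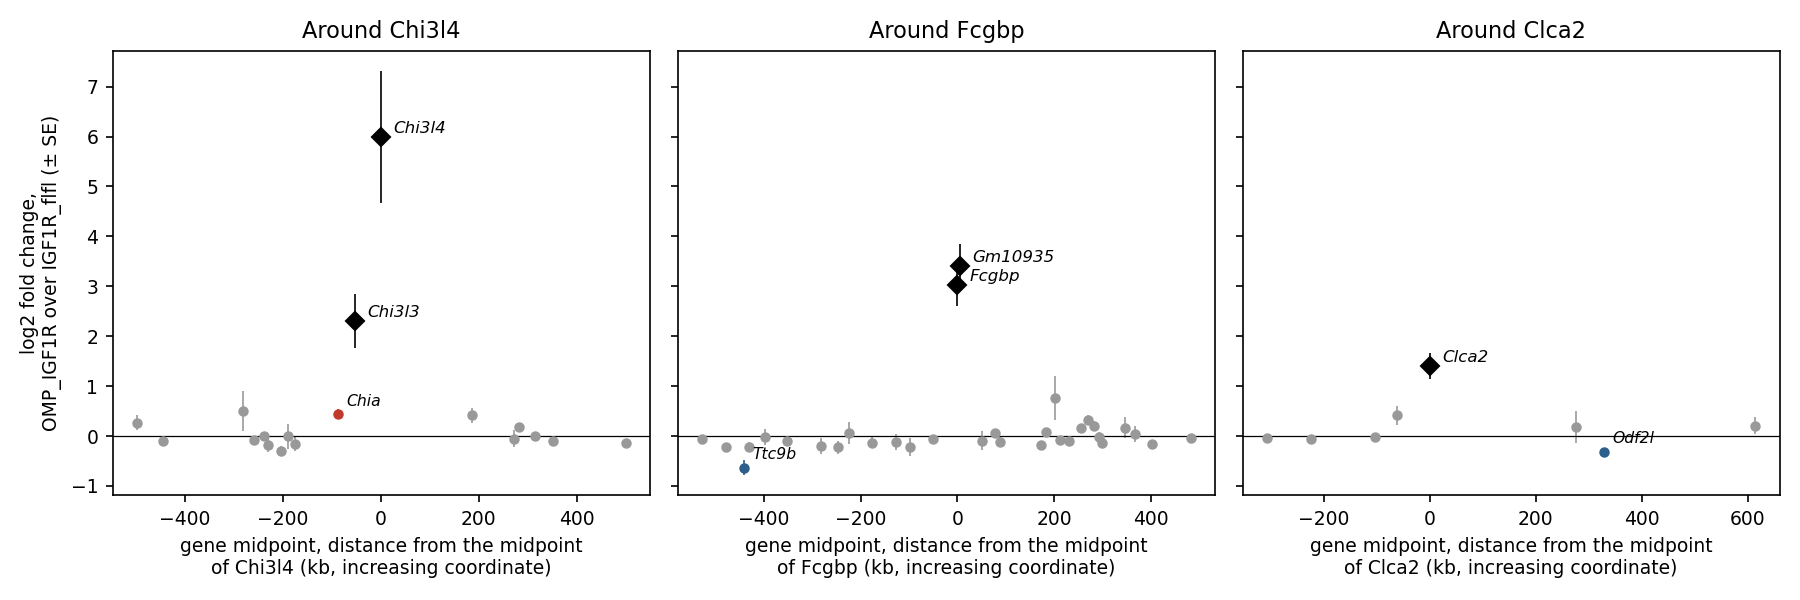
Log2 fold change, OMP_IGF1R over IGF1R_flfl, with its SE for each tested gene within 500 kb of Chi3l4, Fcgbp or Clca2, by the distance between gene midpoints. Diamonds are members, red and blue points are neighbours called higher and lower, and grey points were not called.

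RefSeq promoters (GRCm38.p6) were found for 5 of the 7 genes, and the 250 bases before the start of the Chi3l4 and Chi3l3 transcripts are shown because both genes were chosen for the same rise from neighbouring positions. They lie at chr3:106219480-106219729 for Chi3l4 and chr3:106167565-106167814 for Chi3l3, both on the minus strand. Capitals mark the motifs searched on both strands: TTCNNNGAA, letters that STAT factors bind, TATAAA, and TTGCNNAA, a C/EBP core. The spaced form with 1 more N between TTC and GAA, which STAT6 is known to bind, was searched too.
Chi3l4: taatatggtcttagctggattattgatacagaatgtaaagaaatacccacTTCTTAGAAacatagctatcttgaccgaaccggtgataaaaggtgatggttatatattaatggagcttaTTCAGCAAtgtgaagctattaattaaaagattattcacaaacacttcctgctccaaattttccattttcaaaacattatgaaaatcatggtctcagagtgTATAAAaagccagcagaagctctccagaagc
Chi3l3: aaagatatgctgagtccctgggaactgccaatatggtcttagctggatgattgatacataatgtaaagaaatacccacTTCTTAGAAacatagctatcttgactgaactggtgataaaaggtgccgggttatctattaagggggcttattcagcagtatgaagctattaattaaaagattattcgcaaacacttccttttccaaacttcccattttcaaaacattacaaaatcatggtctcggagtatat
Over 221 aligned bases, 201 (91.0%) were identical. TTCNNNGAA was found in both, at -200 in Chi3l4 and -172 in Chi3l3 from the transcript start, and in 7.02% of 32851 RefSeq promoters of that length. TTGCNNAA (at -131) was found in Chi3l4 only of this pair, and in 9.56% of all promoters. TATAAA was found in Chi3l4 at -31, and in 12.4% of all promoters. The Chi3l3 window ends at the bases that align with this TATAAA, and bases past the window were not searched, so whether Chi3l3 has it was not determined. TTGCNNAA was also found in the promoter of Clca2 (at -70). The form with 1 more N was in none of the 5, and in 5.85% of all promoters. No motif searched was found in the Fcgbp or Chi3l1 promoter. A match is a description of letters in this window and not a binding site.

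The authors' deposited table of their own comparison gave other sizes for the same genes. In the authors' deposited table the log2 fold changes were 0.22 for Chi3l4, 0.72 for Chi3l3, 0.10 for Chi3l1, 0.99 for Fcgbp, 1.29 for Gm10935, 0.91 for Clca2 and 1.05 for Spink5. Each had the same sign as the value fitted here, and all 1425 genes called here had the same sign in the authors' deposited table. The largest absolute log2 fold change of any gene in the authors' deposited table was 1.79, and its header does not say how the values were estimated. Chi3l4, the gene with the largest spread between libraries of the 7, had the second smallest value in the authors' deposited table.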

How the data were processed

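Libraries were stranded, poly(A)-selected and sequenced as 100-base paired reads, per the labels' protocols. The submitters' processing notes name Trim Galore 0.3.7, the aligner TopHat2 2.0.14, SAMtools 1.2, DESeq2 and the build GRCm38 (mm10). For DESeq2 they give no version, and the counting tool, its strand setting and its treatment of reads with several matches are not given in the sources used. The deposited table holds raw counts per gene and library, as its whole-number values show. A second deposited table, of the authors' own comparison, has a mean normalized signal, a log2 fold change, its error as a score, a test score and p-values per gene, per the file headers. It serves here for description.

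The 7 genes and all lists were chosen with earlier results of these data known. Groups follow the library titles. Within-group pairs of libraries had a mean chi-square of 11.9 to 108.9 per gene between them, so no library was a copy of another. Identifiers of 25012 of 25913 genes matched GENCODE M21, after text was trimmed from 23. Counts were fitted with edgeR 4.0.16 in R 4.3.3 (quasi-likelihood F-test, TMM, filterByExpr, Benjamini-Hochberg over 17381 genes, threshold 0.05). CPM use TMM effective library sizes. SE is that of the log2 fold change, worked back from the test as its absolute value divided by the square root of F. Depths of 18802471 to 27793375 counts leave genes with few reads least certain. The scripts were tested on simulated data. Named genes were the members, Igf1r, Omp, up to 4 called genes per list, up to 6 called neighbours, the defining genes of cell type lists, and the 3 genes most like each member; any other gene is marked in the text as chosen after its values were seen. Alternatives were other scalings and filters, DESeq2 1.42.0, limma 3.58.1 voom with sample weights, leaving out libraries, other windows, summed overlapping or paralogous counts, a prior count of 0.5 in place of 2, and Spearman in place of Pearson.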

Additional observations from a re-analysis of the deposited data

Results flagged for a closer look

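Of 14 groups of 4 libraries (7 genes in 2 groups), 3 held a library far from the others on the CPM scale. The rule flags about 1 in 20 groups by chance only where values are independent and normally spread. CPM need not be normally spread, and the flags were not checked on a log scale. The groups are also not independent: Chi3l4 and Fcgbp were flagged in the same library and varied alike (r = 0.83, as above). The number of flags is therefore not compared with chance. Clca2 in OMP_IGF1R 17 was at 19.6 CPM, where the next library of its group was at 10.9 CPM. Chi3l4 in IGF1R_flfl 13 was at 48.2 CPM, where the next library of its group was at 5.0 CPM. Fcgbp in IGF1R_flfl 13 was at 42.1 CPM, where the next was at 19.8 CPM. OMP_IGF1R 17 also held squamous and muscle genes, and IGF1R_flfl 13 also held Muc5ac, Tff1 and Clca3 reads, and their part in these values was not tested.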

How the results depend on the processing

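No paired analysis was possible because the groups share no replicate numbers. All 7 log2 fold changes kept their sign under the other scalings, filters and tools, and in the fits that leave out 1 library (without IGF1R_flfl 13 and OMP_IGF1R 17 together, Chi3l1 was at -0.02), where they ranged from 5.59 to 8.37 for Chi3l4 (highest without IGF1R_flfl 13), 1.74 to 2.69 for Chi3l3, 0.04 to 0.20 for Chi3l1, 2.68 to 3.47 for Fcgbp, 3.01 to 3.84 for Gm10935, 1.11 to 1.53 for Clca2 and 1.87 to 2.30 for Spink5. Counts of called genes moved more. Leaving out 1 library gave 569 to 1477 of all genes, against 1425, 0 to 2 family genes, against 1, 1 to 6 mucosal genes, against 6, 0 to 1 skin protease genes, against 0, 0 to 5 immune markers, against 2, and 1 to 6 neighbours, against 6. DESeq2 called 2140 of all genes, 2 family genes and 10 neighbours, and voom called 1 skin protease gene. A filter of 1 CPM in 4 libraries, which tests fewer genes, left 1 immune marker. Windows of 250 kb and 1 Mb gave 2 and 12 called neighbours. Without IGF1R_flfl 2 and OMP_IGF1R 17, 2 family genes were called. Without IGF1R_flfl 13 and OMP_IGF1R 17, chosen after seeing the data, 757 of all genes and 0 immune markers were called, and the Chi3l4 value was 8.45. The cause was not tested, beyond that these last fits hold fewer libraries. Of the 3 genes most like Chi3l1, 1 stayed among its nearest 30 under Spearman. Genes with few reads, such as Il13ra2, Retnla and Il13, are limited by depth.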
